A study of Homo sapiens with 18 samples.

Results

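Charlie elements and their short relatives MER5, MER20 and MER58 are DNA transposons of the hAT superfamily, the group that also holds the maize element Ac. Every annotated repeat copy whose name begins with Charlie, MER5A, MER5B, MER5C, MER20 or MER58 was taken as a member, by name alone and without regard to any measured value. This gave 61253 of the 2404193 copies in the count table of the 5-fluorouracil (5-FU) experiment and 38363 of the 1996647 copies in the table of the Nutlin experiment. In all, 64345 copies stood in at least 1 table and 35271 in both, which was 57.6% of the members of the first table and 91.9% of those of the second. They carried 51 names, of which 40 were Charlie names, 5 MER5 names, 2 MER20 names and 4 MER58 names.

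Total RNA of IMR90 cells, a line of diploid human lung fibroblasts of wildtype genotype, was sequenced after a strand-specific library preparation in 18 samples that formed 9 groups of 2. Nutlin, a compound that keeps MDM2 from binding p53, was given at 5 µM for 6 h. 5-FU is a pyrimidine analogue that disturbs the synthesis of thymidylate and the processing of RNA, and its dose was 375 µM during 6, 12 or 24 h. DMSO in matching volume and for the same time served as a separate control of every drug group, and the remaining group was untreated and received fresh medium 12 h before extraction. All groups shared the one cell line, no group without p53 was among them, and the labels do not say that the 2 samples of a group were separate cultures, so the p-values measure only the spread between these samples, which may be technical. In the Nutlin experiment both untreated columns held the same values in every row, so they entered as 1 library. By the labels, both experiments used the same untreated samples.

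A hAT transposon moves by being cut out and pasted elsewhere by a transposase, which binds short inverted repeats at its ends. The longer Charlie elements once encoded that transposase, whereas MER5A, MER5B, MER20, MER58A and similar names are short, internally deleted forms that lack it and relied on the enzyme of a longer relative. None of them is known to move in humans today, and copies that lie within genes can be transcribed as part of longer RNAs. Some transposases of this superfamily live on as human genes, among them ZBED5, and MER20 copies are known for carrying regulatory sites in endometrial stromal cells.

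Libraries of the 5-FU experiment held 2412334 to 6290320 counts, of which 75348 to 173606 fell on members, and the DMSO 12 h libraries were the shallowest. Libraries of the Nutlin experiment held 9109885 to 11880265 counts, of which 75076 to 106912 fell on members. Copies of structural RNAs such as rRNA and tRNA took 30.0 to 45.2% of the counts of a library in the 5-FU experiment and 74.4 to 80.6% in the Nutlin experiment. Levels are given as CPM, the counts of a copy or name relative to the scaled library size, and were therefore not compared between the tables.

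Members were short and thinly covered. Their median length was 156 bases in the 5-FU experiment (13 to 2758 bases) and 162 bases in the Nutlin experiment (11 to 2758 bases). Charlie names supplied 22645 and 14136 copies in the 2 tables, MER5 names 22565 and 13597, MER20 names 7385 and 4973, and MER58 names 8658 and 5657. Members without a single count in any library made up 6.51% of member copies in the 5-FU experiment, against 41.6% of all copies in it, and 9.82% in the Nutlin experiment, against 56.0% of all copies. The copies listed differ between the experiments, so these shares may not hold for all annotated copies. After a filter on low counts 2304 member copies (3.76%) were tested in the 5-FU experiment and 860 (2.24%) in the Nutlin experiment. The tested copies held 70.6% and 69.0% of the member counts. A copy that was high in only 1 group could pass the filter through that group, so counts over tested copies do not describe all members.

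Counts per kb of annotated sequence were lower in longer copies, except in the longest class. The length of the reads was not taken into account, so counts per kb of the shortest copies may not measure RNA per base. In the 5-FU experiment, copies under 100 bases had 224.5 counts per kb summed over the 14 libraries, and those of 100 to under 200 bases had 187.8. The level was 110.4 counts per kb at 200 to under 500 bases, 58.6 at 500 to under 1000 bases and 52.9 at 1000 to under 1500 bases. The 162 copies of 1500 bases or more had 203.6 counts per kb, and although they were 0.264% of the member copies they held 4.10% of the member counts. The Nutlin experiment had the same order up to that class, with 107.6, 80.0, 43.9, 19.3 and 15.2 counts per kb, and then 74.2 in its 142 long copies.

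**Figure D1:**
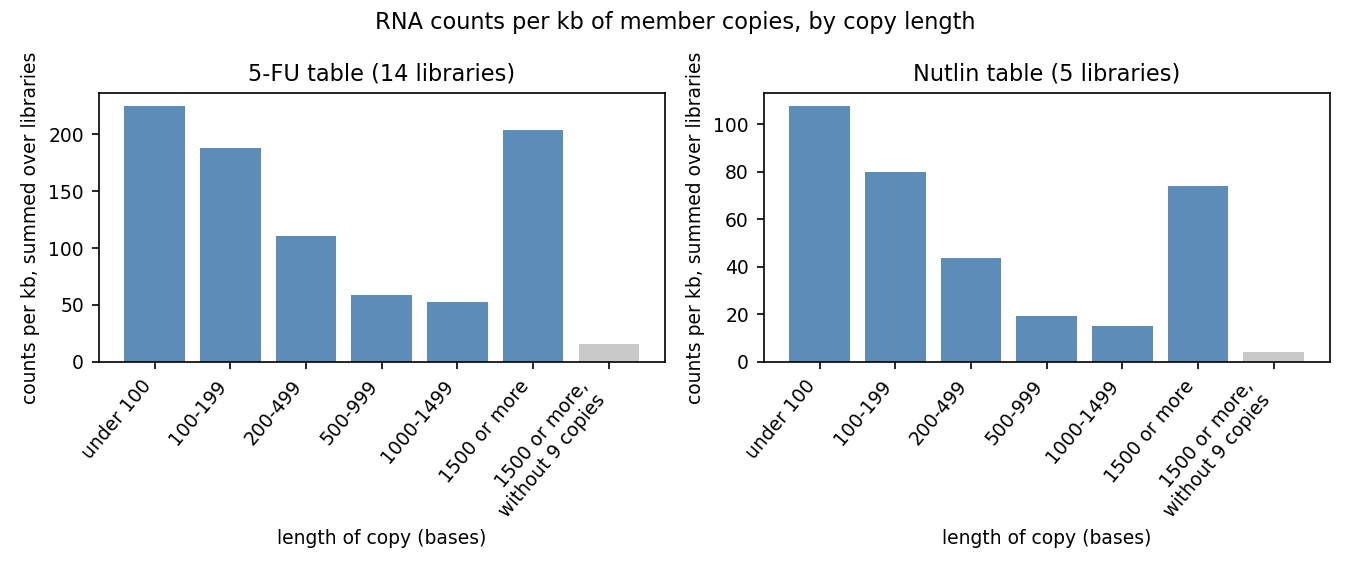
Counts per kb of annotated sequence, summed over all libraries of a table, for member copies in 6 length classes (blue bars) and for the longest class without its 9 copies of highest count (grey bars); left, 5-FU experiment, right, Nutlin experiment. The longest class reached 203.6 counts per kb in the 5-FU experiment and 15.6 without the 9 copies.

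Few copies carried the counts of that last class. The same 9 long copies ranked highest in both tables and held 92.8% and 94.7% of the counts of the class. These 9 were singled out after their counts were seen. Without them the long copies had 15.6 counts per kb in the 5-FU experiment and 4.24 in the Nutlin experiment. The shorter classes kept their own copies of highest count, so these values are not comparable with theirs. The ninth copy had 1899 counts in the 5-FU experiment and the tenth had 686, and the median of the long copies outside the 9 was 4 counts.

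Each of the 9 spanned much of the consensus of a long Charlie element, which is the reconstructed ancestral sequence. Charlie6 on chr16:20746158-20748180 aligned to consensus bases 16 to 2267 and Charlie12 on chr7:99265999-99268740 to bases 1 to 2766. Charlie9 was present with copies on chr4:15688122-15690764 (bases 1 to 2664) and chr7:99144281-99145927 (880 to 2513). Charlie2a on chr5:111059889-111062348 covered bases 7 to 2595, and Charlie11 on chr5:159820522-159822709 bases 7 to 2196. Charlie17 on chr2:101634256-101636189, Charlie1 on chr11:10874252-10876178 and Charlie8 on chr7:74563259-74565187 began at bases 477, 608 and 124. Coordinates are those of the deposited tables, whose build is hg19 per the submitters' processing notes. The genes around the copies were not looked up, since the annotation at hand is of another build.

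Single copies also held most of the counts of several names. The most abundant copy held 96.2% of the counts of Charlie12 in the 5-FU experiment and 95.4% in the Nutlin experiment, 91.8% and 93.2% of those of Charlie6, and 82.5% and 91.0% of those of Charlie11. For Charlie17a a fragment of 95 bases on chr3:156259896-156259990 held 69.7% and 68.3%. MER5B had 7370 copies in the 5-FU experiment, yet 1 of them, on chr14:52195840-52196014, held 23.9% of its counts, and 13.8% in the Nutlin experiment. At the other end, no copy of Charlie1a held more than 2.34% of its counts in the 5-FU experiment or 2.86% in the Nutlin experiment. The 100 most abundant member copies together held 35.0% and 38.9% of all member counts.

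Summed over copies, the 5 names with the highest mean CPM were the same in both tables. MER5A averaged 4097 CPM over the groups of the 5-FU experiment, MER5B 3903, MER20 2683, MER58A 1815 and MER5A1 1515. In the Nutlin experiment they averaged 1383, 1210, 973.6, 615 and 534 CPM. All 5 are short non-autonomous elements with many copies, and per kb of annotated sequence other names ranked higher. Charlie17a reached 9.46 CPM per kb in the 5-FU experiment (6.86 to 11.9 over libraries) and Charlie6 8.44 (6.05 to 11.1), so their ranges overlapped. Charlie10a had 7.09 (4.88 to 9.95), MER5B 4.44 (3.51 to 5.31), and Charlie3, a longer element, was lowest with 0.189 (0.137 to 0.265). In the Nutlin experiment Charlie6 had 5.85, Charlie17a 4.70, Charlie10a 4.49 and Charlie3 0.0499 CPM per kb.

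The share of RNA from members lay between 4.20% and 4.65% in all groups. Members held 4.36% ± 0.0392 (SD, n = 2) of the counts outside structural RNA in untreated cells of the 5-FU experiment, 4.36% ± 0.0724 in DMSO 6 h, 4.35% ± 0.0124 in 5-FU 6 h, 4.20% ± 0.0183 in DMSO 24 h and 4.22% ± 0.0754 in 5-FU 24 h. The highest share was 4.65% ± 0.00682 in DMSO 12 h, against 4.46% ± 0.0617 in 5-FU 12 h. In the Nutlin experiment the share was 4.32% ± 0.136 with DMSO and 4.21% ± 0.0182 with Nutlin, and the single untreated library had 4.32%. With 2 against 2 libraries an exact two-sided permutation test cannot give a p below 0.333, so the shares are given as a description. In these bulk samples, fewer cells that make an RNA and less of it per cell cannot be told apart.

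The high share at DMSO 12 h was seen for the Charlie names. They held 1.98% in both DMSO 12 h libraries and 1.76% and 1.74% in the 5-FU 12 h libraries, and lay between 1.70 and 1.79% in the other 10 libraries. MER20 names held 0.548% and 0.539% at DMSO 12 h and 0.600% and 0.587% at 5-FU 12 h, the highest values of the table. MER58 names held 0.487% and 0.498% with DMSO and 0.532% and 0.535% with Nutlin, while the untreated library of that table had 0.549%. As a share of all counts, structural RNA included, the log2 ratio of drug to DMSO was below 0 for members as a whole in all 4 comparisons, from -0.31 at 12 h to -0.08 at 6 h of 5-FU.

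Under Nutlin single member copies differed from DMSO in both directions. Of 860 copies tested, 42 were higher and 35 lower after 6 h than in DMSO (edgeR quasi-likelihood test, Benjamini-Hochberg adjusted p under 0.05 over all copies). This was 8.95% of the member copies, against 9.57% of all 21328 copies tested (5.36% higher and 4.21% lower). Charlie names contributed 15 higher and 15 lower of 331, MER5 names 13 and 11 of 319, MER20 names 7 and 4 of 94, and MER58 names 7 and 5 of 116. With total counts alone 29 member copies were higher and 48 lower, and DESeq2 called 20 higher and 15 lower. Over all 21328 copies the numbers were 833 and 1271 with total counts alone and 559 and 379 with DESeq2. In the main fit, other hAT names, such as MER1A and Cheshire, had 21 and 18 of 427. The Tigger elements, which belong to a different transposon superfamily, had 29 and 20 of 561. A called copy was found for 28 of the 49 names with a tested copy, and 12 of these names had copies called in both directions. For MER5A, 8 copies rose and 5 fell out of 155.

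**Figure D2:**
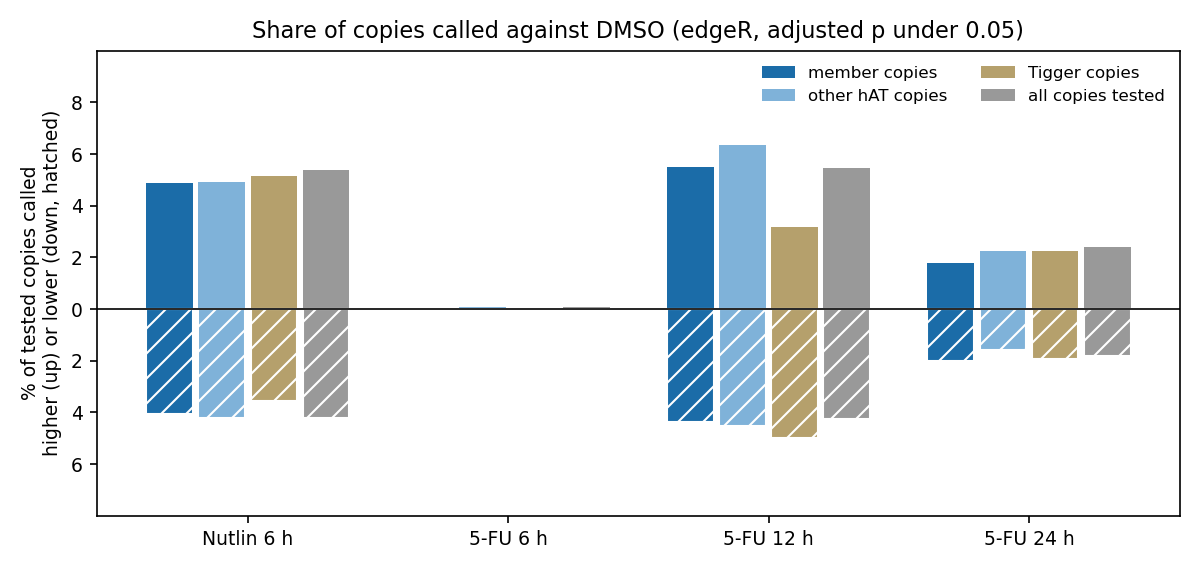
Percent of tested copies called higher (plain bars, upward) or lower (hatched bars, downward) than DMSO at an edgeR adjusted p under 0.05, for member copies, other hAT copies, Tigger copies and all copies tested, in 4 drug comparisons. Members had 8.95% called under Nutlin against 9.57% of all copies, and 9.90% against 9.71% after 12 h of 5-FU.

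The risen copy with the smallest p under Nutlin was a MER20 copy on chr17:33597658-33597888. It had 6.70 and 6.77 CPM in the DMSO libraries and 63.2 and 65.7 CPM with Nutlin, and 7.75 CPM in untreated cells. The Nutlin libraries stood far above the other 3, a log2 fold change of 3.25 (SE 0.13, edgeR adjusted p = 1.69e-08). MER58A on chr5:172743140-172743360 had 29.6 and 32.8 CPM in DMSO and 158 and 155 CPM with Nutlin (log2 fold change 2.33, SE 0.10, edgeR adjusted p = 3.33e-08). Its untreated library had 140 CPM, close to the Nutlin libraries and not to the DMSO libraries. A second MER58A copy, on chr9:70631546-70631719, went from 0.756 and 1.04 CPM to 8.46 and 7.12 CPM, and the Charlie8 copy of 1929 bases on chromosome 7 named above went from 21.0 and 24.3 CPM to 49.4 and 51.9 CPM. Their log2 fold changes were 3.10 (SE 0.34, edgeR adjusted p = 0.000158) and 1.16 (SE 0.12, edgeR adjusted p = 0.000105). Their groups did not overlap, which the rule for naming copies required. The MER58A copy on chromosome 9 also varied without Nutlin. In the 5-FU experiment it had 2.25 and 2.39 CPM in untreated cells and 18.3 and 24.0 CPM in DMSO 6 h. At 12 h its replicates lay far apart, with 0 and 11.9 CPM in DMSO and 16.5 and 1.16 CPM with 5-FU.

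Among the copies that fell, Charlie10a on chr12:98928671-98928900 had 41.2 and 40.0 CPM in DMSO and 14.6 and 14.5 CPM with Nutlin. The untreated library had 37.3 CPM, so the Nutlin libraries were again the ones apart, with a log2 fold change of -1.48 (SE 0.12, edgeR adjusted p = 1.79e-05). MER5A1 on chr13:33677669-33677815 went from 8.97 and 8.75 CPM to 3.17 and 3.26 CPM (log2 fold change -1.46, edgeR adjusted p = 0.00198). MER5B on chr1:68941525-68941696 went from 28.1 and 31.2 CPM to 13.1 and 16.5 CPM (-1.01, edgeR adjusted p = 0.00142), and MER58A on chr11:61920397-61920591 from 11.2 and 12.1 CPM to 5.55 and 4.71 CPM (-1.17, edgeR adjusted p = 0.00391). The groups of these 4 copies did not overlap, which the rule for naming copies required.

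Summed by name, 5 of 50 names were called under Nutlin (2 higher and 3 lower), against 12.7% of all 1028 names tested (9.63% higher and 3.11% lower). MER58A had 533 and 530 CPM in DMSO and 687 and 638 CPM with Nutlin (log2 fold change 0.32, SE 0.08, edgeR adjusted p = 0.00383). Its untreated library had 651 CPM, between the Nutlin libraries and above both DMSO libraries. Charlie8 rose by 0.27 on the same scale (edgeR adjusted p = 0.0376). Charlie10a fell from 69.9 and 75.5 CPM to 42.3 and 37.1 CPM (log2 fold change -0.87, SE 0.11, edgeR adjusted p = 2.75e-08), and Charlie29a (-0.28) and Charlie14a (-0.37) fell with an edgeR adjusted p of 0.0429 each. Without the most abundant copy of every name none of the 5 was called. Over all names 29 were then called higher and 7 lower, instead of 99 and 32. MER58A then had a log2 fold change of 0.00, Charlie8 0.02 and Charlie10a -0.35 (edgeR adjusted p = 0.131). When libraries were scaled by their total counts alone, 16 member names were called, all lower, and over all names 43 were higher and 188 lower. Without 1 library at a time 9 (without DMSO replicate 1), 1 (DMSO replicate 2), 1 (Nutlin replicate 1) and 2 names (Nutlin replicate 2) were called.

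After 6 h of 5-FU a single member copy was called, 0.0434% of 2304 against 0.101% of all 63602 copies tested (0.0896% higher and 0.011% lower). In edgeR, 129 member copies (5.60%) had an unadjusted p under 0.05, against 7.37% of all copies. The called copy was Charlie5 on chr16:88460713-88460916, with 2.29 and 2.34 CPM in DMSO and 8.57 and 13.3 CPM with 5-FU (log2 fold change 2.23, SE 0.38, edgeR adjusted p = 0.0149). At 6 h it was called without 5-FU replicate 1 but not without 5-FU replicate 2 or either DMSO replicate. Among the members it was the only copy called at all 3 times. It had 0.741 and 0.765 CPM in DMSO 12 h and 14.4 and 13.1 CPM in 5-FU 12 h, then 0.936 and 0.688 CPM in DMSO 24 h and 18.3 and 17.04 CPM in 5-FU 24 h. The log2 fold changes were 4.14 (edgeR adjusted p = 3.09e-05) and 4.40 (edgeR adjusted p = 1.75e-06), and untreated cells had 0.751 and 0.299 CPM, so all 6 libraries with 5-FU stood above all 8 without it. No member name was called at 6 h in the edgeR fit to all libraries or by DESeq2. In that edgeR fit 4 member names (8.0%) had an unadjusted p under 0.05, against 11.7% of all names, and 0% of all names were called. An edgeR fit to only the 4 libraries compared called 5 member names.

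**Figure D3:**
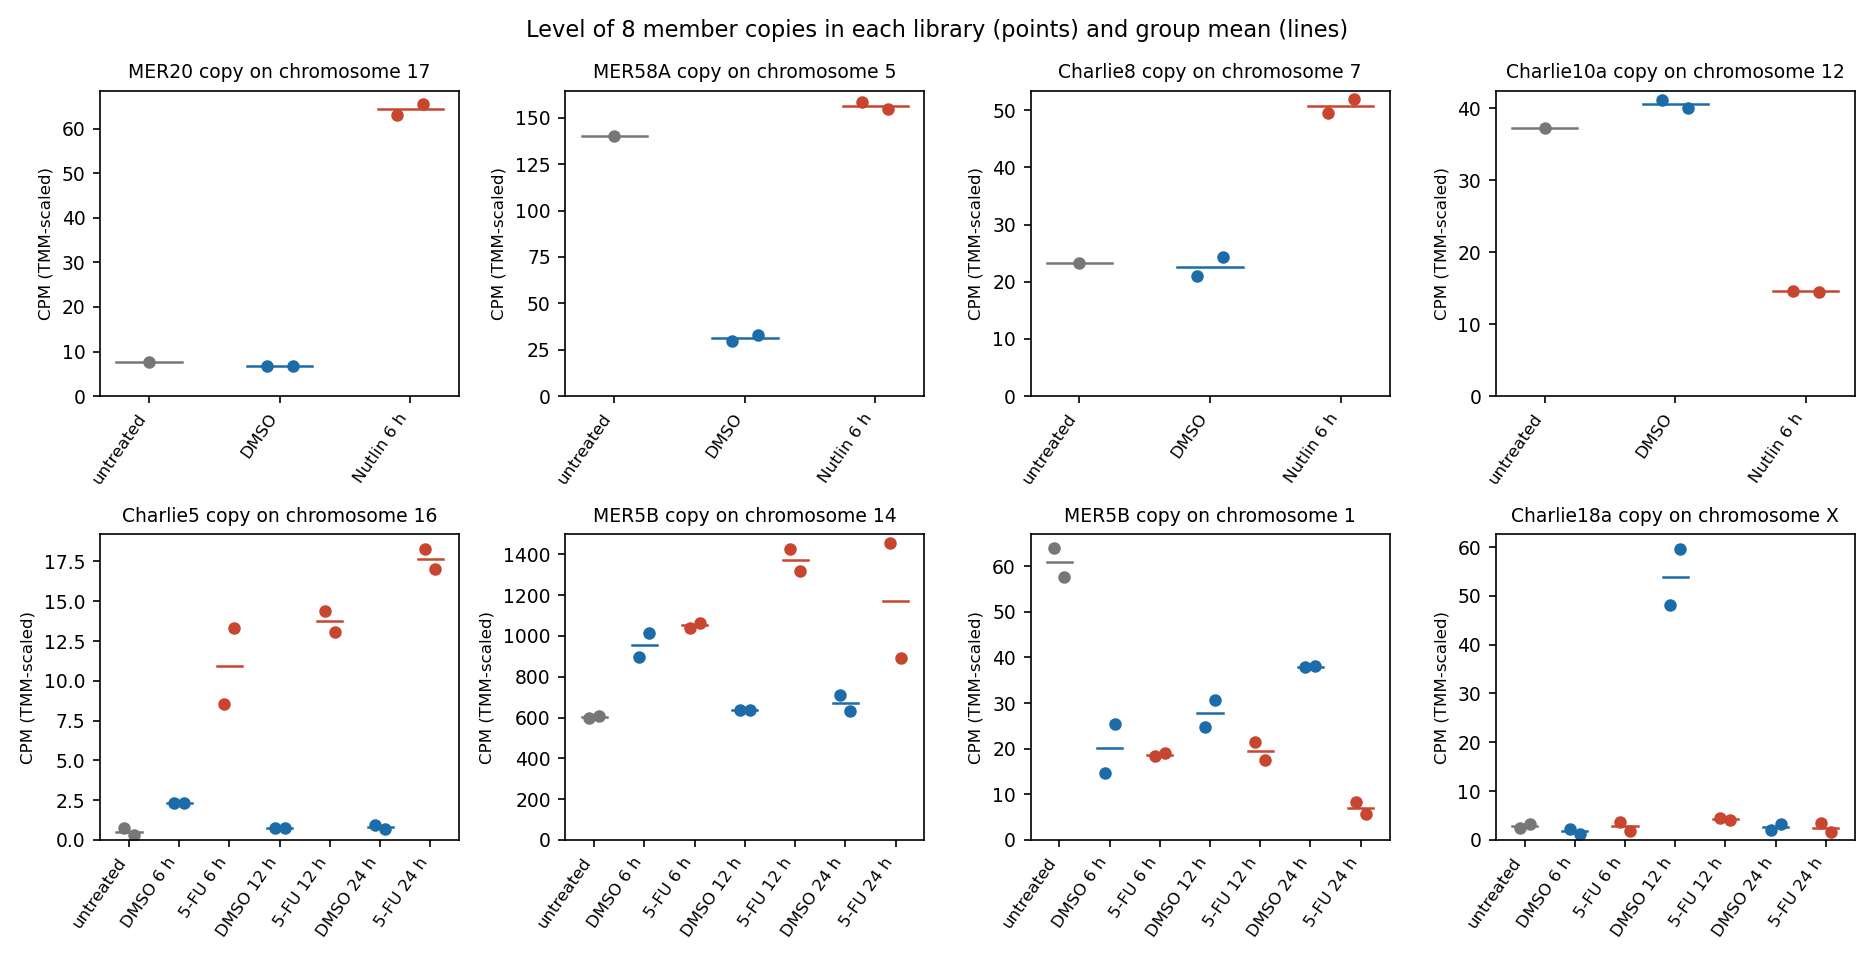
CPM of 8 member copies in every library (points) with the mean of each group (lines), untreated in grey, DMSO in blue and drug in red; upper row, Nutlin experiment, lower row, 5-FU experiment. The Charlie5 copy was at or below 2.34 CPM in all libraries without 5-FU and at or above 8.57 CPM with it, and the Charlie18a copy stood apart in the DMSO 12 h libraries.

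At 12 h, 127 member copies were higher and 101 lower with 5-FU than in DMSO, 9.90% of those tested against 9.71% of all copies (5.44% higher and 4.27% lower). MER5 names had 50 copies higher and 30 lower of 751, MER20 names 15 and 7 of 285, MER58 names 19 and 15 of 343, and Charlie names 43 and 49 of 925. Median log2 fold changes over tested copies were -0.27 for Charlie names and 0.10 for MER5 names, against -0.04 over all copies. The median was -0.36 for Tigger copies and 0.01 for other hAT copies, so a low median was not particular to Charlie names. The middle 50% of member copies lay between -0.92 and 0.79, and the median standard error was 0.76, so many single copies differed by no more than about 1 standard error. Called copies were found for 36 of 50 names, in both directions for 18 of them. The direction depended on the scaling: the counts of higher and lower member copies were 64 and 194 with scaling by total counts alone and 201 and 63 with scaling factors computed from all copies. Over all copies tested they were 2056 and 4703, and 5195 and 1909. The 228 calls became 75 without either DMSO replicate, 110 without 5-FU replicate 1 and 86 without 5-FU replicate 2.

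Either group could be the one that stood apart at 12 h. For 74 of the 228 called member copies only the 5-FU 12 h libraries lay outside the range of the other 10 libraries of the table, and for 60 only the DMSO 12 h libraries did. These were 32.5% and 26.3% of the called members, against 31.1% and 25.7% of all called copies. Both groups lay outside that range for 20 copies and neither did for 74. Against the DMSO libraries of 6 and 24 h instead, 341 member copies were called, 241 higher and 100 lower, of which 141 were among the 228. The counts against these libraries were not set against those of all copies.

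Charlie18a on chrX:114196307-114196510 stood apart in its DMSO 12 h libraries. It had 48.2 and 59.7 CPM in DMSO 12 h and 4.41 and 4.07 CPM in 5-FU 12 h (log2 fold change -3.66, SE 0.40, edgeR adjusted p = 6.23e-06), but 1.17 to 3.27 CPM in the DMSO libraries of 6 and 24 h. Against those libraries its log2 fold change was 0.97. Charlie1 on chr6:33268052-33268157 had 24.5 and 34.0 CPM in DMSO 12 h and 165 and 127 CPM in 5-FU 12 h (2.32, SE 0.26, edgeR adjusted p = 8.87e-06). Its other DMSO libraries lay between 67.1 and 85.5 CPM, so both 12 h groups stood apart, in opposite directions. MER20 on chr13:102368228-102368443 showed the same arrangement, with 21.5 and 21.0 CPM in DMSO 12 h, 116 and 105 CPM in 5-FU 12 h and 48.5 to 67.6 CPM in the other DMSO libraries (2.38, SE 0.28, edgeR adjusted p = 1.54e-05). A fragment of MER5A on chr3:170023005-170023056 had 1.48 and 1.53 CPM in DMSO 12 h and 10.9 and 14.5 CPM in 5-FU 12 h (3.05, SE 0.43, edgeR adjusted p = 0.000101), while the other DMSO libraries had 7.11 to 10.2 CPM.

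Other copies had 12 h drug values beyond all 8 libraries without 5-FU. Charlie15b on chr17:62540408-62540465 had 81.9 and 113 CPM in DMSO 12 h and 25.3 and 24.7 CPM in 5-FU 12 h (log2 fold change -1.96, SE 0.27, edgeR adjusted p = 7.03e-05). MER5A on chr2:173461459-173461625 had 41.9 and 87.2 CPM against 16.5 and 13.9 CPM (-2.08, SE 0.32, edgeR adjusted p = 0.000255), and 39.7 to 41.8 CPM in the other DMSO libraries. The copy with the most counts among members of the 5-FU experiment, MER5B on chromosome 14, had 637 and 639 CPM in DMSO 12 h and 1426 and 1321 CPM in 5-FU 12 h (1.11, SE 0.23, edgeR adjusted p = 0.00407). At 24 h it had 712 and 631 CPM in DMSO and 1455 and 891 CPM with 5-FU (0.80, SE 0.23, edgeR adjusted p = 0.0475), and at 6 h, with 897 to 1014 CPM in DMSO and 1041 and 1063 CPM with 5-FU, it was not called.

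By name, 19 were higher and 3 lower at 12 h, 44.0% of 50 names against 33.8% of all 1078 names tested (28.5% higher and 5.29% lower). This direction depended on the scaling: it was 5 higher and 15 lower with DESeq2-type (RLE) factors, 5 and 13 with factors from filtered copies, and 0 and 31 with total counts alone. The 22 called names became 13 without DMSO replicate 2, 8 without 5-FU replicate 1 and 7 without 5-FU replicate 2. Only 7 of the 22 names kept their sign under all 4 scalings. Charlie1, Charlie9, Charlie12 and Charlie26a were higher under each, and Charlie17, Charlie20a and Charlie29a lower and called under each. The other scalings shifted the names downward, so the sign of a lower name could not turn under them. Only for the higher names could this check fail. MER20, which went from 2115 and 2106 CPM to 3024 and 3014 CPM (log2 fold change 0.52, SE 0.07, edgeR adjusted p = 6.79e-05), had -0.05 with total counts alone, and MER5B with 0.53 (SE 0.09, edgeR adjusted p = 0.000626) had -0.04.

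**Figure D4:**
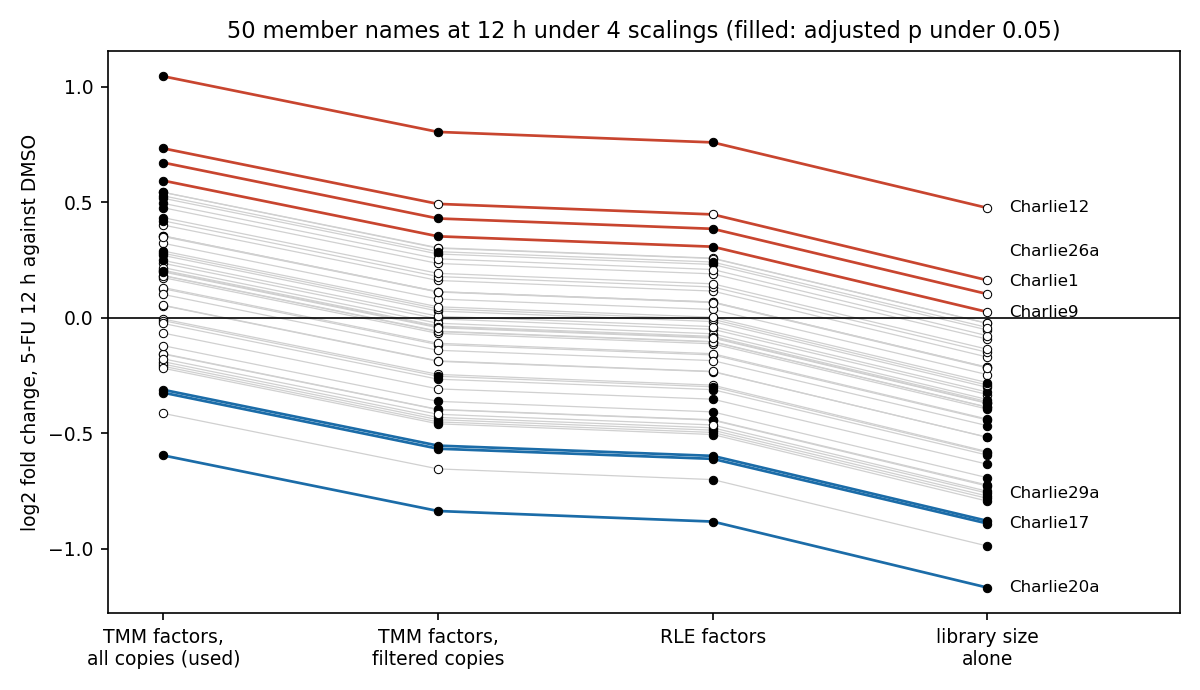
Log2 fold change of 50 member names between 5-FU 12 h and DMSO 12 h under 4 ways of scaling libraries; each line is 1 name, filled points have an edgeR adjusted p under 0.05. Red and blue lines mark the 4 higher and 3 lower called names whose sign was the same under all 4. The other called names crossed 0. The scalings not used in the main fit shifted the names downward, so the lower names could not turn.

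Charlie1 had 618 and 644 CPM in DMSO 12 h and 1045 and 964 CPM in 5-FU 12 h (log2 fold change 0.67, SE 0.09, edgeR adjusted p = 6.71e-05), and 0.54 without its most abundant copy (edgeR adjusted p = 0.000699). Charlie9 had 222.0 and 241 CPM and then 334 and 364 CPM (0.59, SE 0.11, edgeR adjusted p = 0.00117), and 0.75 without its most abundant copy. Charlie12 and Charlie26a had log2 fold changes of 1.04 and 0.73 (edgeR adjusted p = 0.00348 and 0.0118), but Charlie12 had -0.69 without the long copy that holds most of its counts. Charlie20a went from 176 and 160 CPM to 109 and 113 CPM (-0.60, SE 0.14, edgeR adjusted p = 0.00416). Charlie17 went from 246 and 289 CPM to 223 and 204 CPM (-0.33, and -0.49 without its most abundant copy), and Charlie29a from 373 and 426 CPM to 312 and 331 CPM (-0.31). In every one of these names the drug and DMSO libraries did not overlap. Of the 21 tested copies of Charlie17, 5 were lower and 0 higher, and 4 of those 5 lay within 1 stretch, chr16:2553939-2555715, with log2 fold changes of -1.62 to -0.86.

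At 24 h, 41 member copies were higher and 46 lower than in DMSO, 3.78% of those tested against 4.23% of all copies (2.42% higher and 1.82% lower). Charlie names had 14 higher and 16 lower, MER5 names 16 and 18, MER20 names 4 and 5, and MER58 names 7 and 7. Here 36.8% of the called members had only the drug libraries outside the range of the other 10, and 8.05% only the DMSO libraries, against 31.5% and 8.84% of all called copies. The counts depended on single libraries: without replicate 1 of 5-FU 24 h there were 24 higher and 53 lower copies, and without replicate 2 there were 66 and 27. Without replicate 1 of DMSO 24 h 29 copies were called in all, and 26 without replicate 2.

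Copies that rose at 24 h included Charlie2a on chr11:8710176-8710316, with 14.4 and 10.2 CPM in DMSO and 55.8 and 30.0 CPM with 5-FU (log2 fold change 1.80, SE 0.29, edgeR adjusted p = 0.000601). This copy had risen at 12 h as well, from 22.2 and 19.5 CPM to 85.5 and 76.1 CPM (1.95, edgeR adjusted p = 0.000231). MER58A on chr11:77780600-77780793 had 18.2 and 16.7 CPM in DMSO and 61.2 and 45.1 CPM with 5-FU (1.60, SE 0.23, edgeR adjusted p = 0.000197). In both cases the groups did not overlap, which the rule for naming copies required. The 2 drug libraries of the Charlie2a copy were far apart.

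The 4 fallen copies with the smallest p at 24 h, which were not those with the largest drops, were these. MER5B on chromosome 1 fell from 37.8 and 38.2 CPM to 8.34 and 5.73 CPM (log2 fold change -2.45, SE 0.28, edgeR adjusted p = 1.31e-05). Charlie4z on chr12:105416026-105416206 fell from 13.5 and 19.1 CPM to 2.78 and 2.79 CPM (-2.54, SE 0.32, edgeR adjusted p = 4.84e-05), after 21.5 and 28.3 CPM against 7.06 and 4.36 CPM at 12 h (-2.12). Charlie10a on chromosome 12 fell from 70.0 and 64.2 CPM to 25.5 and 18.9 CPM (-1.60, SE 0.22, edgeR adjusted p = 8.6e-05). Charlie1 on chr10:96372141-96372304 had 39 and 51 counts in DMSO and 0 and 3 counts with 5-FU, so that DMSO was 29.0 times the drug level (95% interval 9.60 to 143, counting error only; edgeR adjusted p = 3.48e-05). All 4 had lower values in both drug libraries than in any other library of the table.

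By name, 5 were higher and 1 lower at 24 h, 12.0% of 50 against 12.1% of all names (10.9% higher and 1.21% lower). Charlie5 had 199.96 and 213 CPM in DMSO and 287 and 263 CPM with 5-FU (log2 fold change 0.41, SE 0.08, edgeR adjusted p = 0.0043). Charlie9 (0.47), Charlie21a (0.39), Charlie1 (0.37) and Charlie1b (0.21) were the other higher names, with edgeR adjusted p values from 0.0108 to 0.0454. Charlie10a went from 157 and 146 CPM to 119 and 103 CPM (-0.45, SE 0.10, edgeR adjusted p = 0.0108), and to -0.70 without its most abundant copy in this table, which is a different one from that on chromosome 12. All 6 were Charlie names, of which 39 were among the 50 tested, and a difference between the families was not tested. With total counts alone 1 of the 50 names was called. Without 1 library at a time 1 (DMSO replicate 1), 2 (DMSO replicate 2), 14 (5-FU replicate 1) and 13 names (5-FU replicate 2) were called.

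The change with 5-FU from 6 to 24 h was tested as a difference of differences. It was called for 7 member copies, all lower at 24 h, 0.304% of those tested against 0.385% of all copies (0.0865% higher and 0.299% lower). No member name was called in the edgeR fit to all libraries and copies, where 1.11% of all names were (0.835% higher and 0.278% lower). Without the most abundant copy of every name 1 was called, and without replicate 1 or 2 of 5-FU 24 h 7 and 2 were. The 7 copies are described with the results for a closer look.

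Nutlin and 5-FU had separate DMSO groups, and the overlap of their calls was partial. Under Nutlin and 24 h of 5-FU, 19 member copies were called in both, 17 of them in the same direction, and these 19 were 24.7% of the Nutlin calls and 21.8% of the 24 h calls. Of the calls, 73 of 77 and 63 of 87 were of copies tested in both tables. None of the overlaps given here was set against that of all copies. Under Nutlin and 12 h of 5-FU, 22 were called in both and 14 had the same direction. Among those with opposite directions were the long Charlie8 copy, which fell by 1.03 on the log2 scale at 12 h and by 1.00 at 24 h, and MER5A1 on chromosome 13, which had 0.90 at 12 h (edgeR adjusted p = 0.0461). The 12 h call of that MER5A1 copy was lost in 8 of 12 alternatives, with an edgeR adjusted p of up to 0.418 without 5-FU 12 h replicate 1. The 12 and 24 h comparisons shared 45 copies, all in the same direction, 19.7% and 51.7% of the 2 lists. Charlie10a on chromosome 12, MER5B on chromosome 1 and MER58A on chr11:61920397-61920591 fell under Nutlin and at 24 h.

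Called the same way under Nutlin and at 2 or more times of 5-FU were 7 member copies. This count was not set against that of all copies. Charlie1 on chromosome 10 was the 1 that fell, from 4.43 and 3.54 CPM to 1.498 and 1.57 CPM under Nutlin (log2 fold change -1.37, edgeR adjusted p = 0.0261). The 6 that rose had low levels in DMSO, under 15 CPM in every DMSO library. MER5A on chr3:152885117-152885292 was the most abundant of them, with 3.13 and 2.71 CPM in DMSO and 7.23 and 7.36 CPM with Nutlin (1.32, edgeR adjusted p = 0.00853), and log2 fold changes of 1.47 and 1.69 at 12 and 24 h. MER5A on chr5:156821553-156821679 had 0.648 and 0.521 CPM in DMSO and 4.32 and 2.29 CPM with Nutlin (2.50, edgeR adjusted p = 0.0111). MER5B on chr6:36648896-36649039 had 0 and 1 count in DMSO and 15 and 16 counts with Nutlin, a ratio of 29.8 with a 95% interval of 4.96 to 1213 for counting error only.

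The other 3 copies lay on chromosome 12 within 19.4 kb. Charlie4a on chr12:69208134-69208423 had 1 and 2 counts in DMSO and 38 and 21 with Nutlin, a ratio of 18.9 (95% interval 6.16 to 94.2), and MER20B on chr12:69216817-69217011 had 2 and 0 counts and then 29 and 24, a ratio of 25.5 (6.71 to 216). MER58A on chr12:69227358-69227562 had 2 and 3 counts in DMSO and 31 and 22 with Nutlin (log2 fold change 3.29, edgeR adjusted p = 0.00512). At 12 h of 5-FU it had 0 counts in both DMSO libraries and 7 and 9 with the drug, at least 2.07-fold higher against a floor of 3 counts per library. The ends of this stretch were set by these 3 copies, which were chosen for their calls under Nutlin and at 12 and 24 h. Their calls in those comparisons were therefore fixed by the choice. All 4 tested members of this stretch were called higher under Nutlin, 3 of 4 at 12 h and 4 of 4 at 24 h, and 0 of 4 at 6 h of 5-FU. Repeats of other kinds in it moved the same way, with 27 of 28 called higher under Nutlin, 4 of 24 at 6 h, 13 of 24 at 12 h and 16 of 24 at 24 h, and none lower.

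Repeats near called members often had the same direction. Of the 77 member copies called under Nutlin, 74 had a tested repeat copy of another kind within 50 kb, and for 66 of these (89.2%) the median of those copies had the same sign. The share was 86.7% of 225 at 12 h and 87.2% of 86 at 24 h. For members that were not called it was 67.2%, 63.7% and 66.1%. Around members that rose under Nutlin there were 666 tested copies of other kinds, of which 509 were called higher and 1 lower, and around those that fell 210, of which 6 were higher and 49 lower. At 24 h the numbers were 307 higher and 0 lower of 865 around risen members and 7 higher and 144 lower of 665 around fallen ones. At 12 h they were 329 and 16 of 1489, and 36 and 294 of 1745. A copy near several called members may enter these sums more than once. Counted by member, 28 of 40 risen and 17 of 34 fallen copies had a neighbour called the same way under Nutlin. The numbers were 72 of 125 and 69 of 100 at 12 h, and 25 of 41 and 30 of 45 at 24 h.

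**Figure D5:**
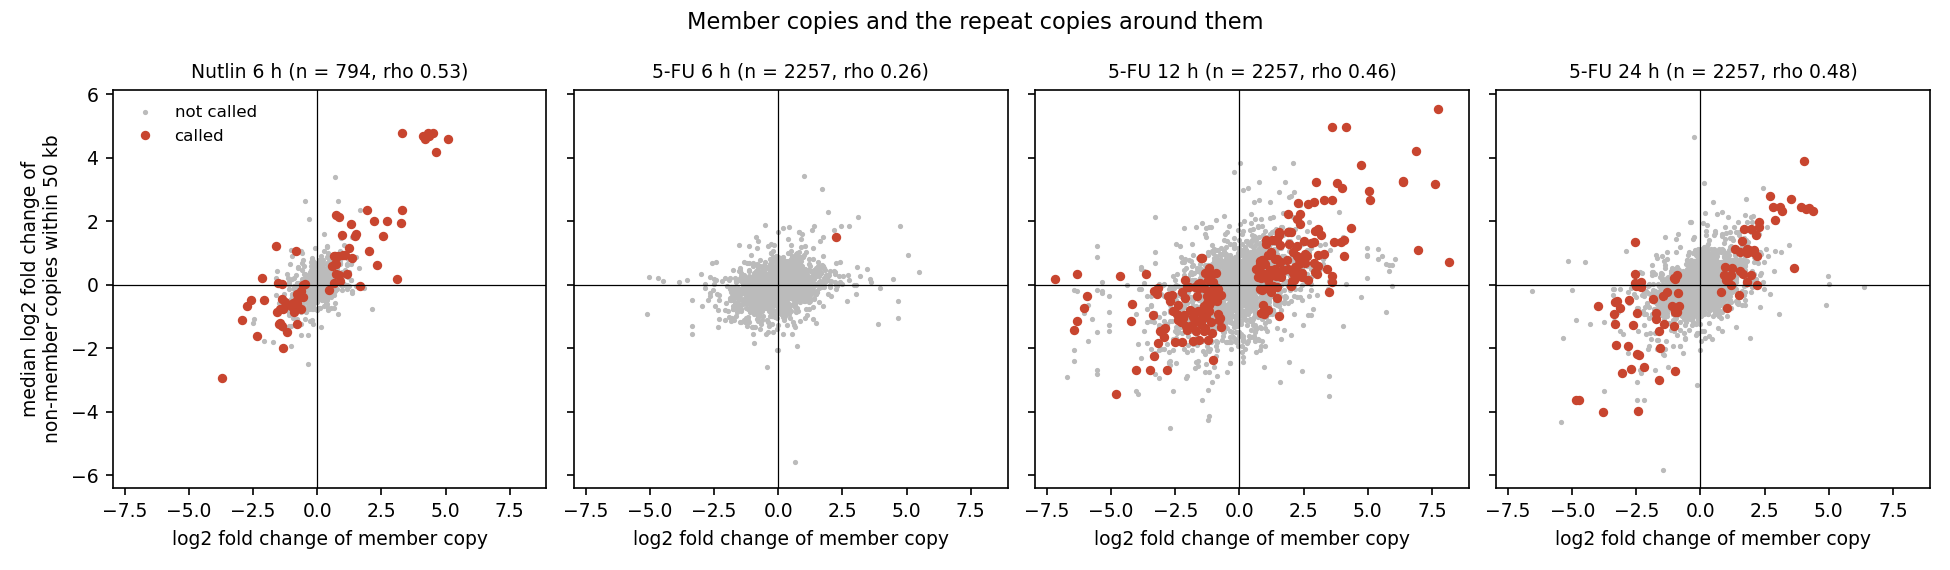
Log2 fold change of each tested member copy (horizontal axis) against the median log2 fold change of tested copies of other repeats within 50 kb (vertical axis) in 4 drug comparisons; red points are called members, grey points are not called. Spearman's rho over copies was 0.53 (n = 794), 0.26, 0.46 and 0.48 (n = 2257).

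Over all tested members with such neighbours, Spearman's rho between the log2 fold change of the copy and the median of its neighbours was 0.53 under Nutlin (n = 794) and 0.26, 0.46 and 0.48 at 6, 12 and 24 h of 5-FU (n = 2257). Neighbouring copies share libraries and may share a transcript, so the points are not independent. Most called members had no other called member close by. In runs with gaps of at most 50 kb lay 15 of the 77 copies called under Nutlin (6 runs), 57 of the 228 called at 12 h (24 runs, 1 of mixed direction) and 15 of the 87 called at 24 h (6 runs). One run at 12 h held a MER58A, a MER5A, a MER5B and a MER5A1 copy on chr2:227592013-227595451, with log2 fold changes of 3.29 to 5.11.

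The 9 long Charlie copies did not move together. Under Nutlin 3 of them were called, Charlie8 higher and Charlie1 (-0.47, edgeR adjusted p = 0.0137) and Charlie11 (-0.55, edgeR adjusted p = 0.0417) lower. At 12 h of 5-FU 4 were called, Charlie1 (0.66, edgeR adjusted p = 0.0404) and Charlie12 (0.86, edgeR adjusted p = 0.0355) higher and Charlie8 (-1.03) and Charlie2a (-1.32, edgeR adjusted p = 0.000936) lower. At 24 h only Charlie8 was called, and at 6 h none was called by edgeR. The Charlie2a copy had 229 and 142 CPM in DMSO 12 h and 85.5 and 63.3 CPM in 5-FU 12 h, with 158 and 164 CPM in untreated cells. In the Nutlin experiment it had 59.7 CPM in the untreated library. It had 11.9 and 9.90 CPM in DMSO and 10.3 and 9.30 CPM with Nutlin, so both groups lay well below the untreated library. By the labels that library is shared with the 5-FU experiment, where DMSO 6 h had 150 and 165 CPM, near untreated cells. The source of the gap in the Nutlin experiment was not tested.

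Few copies were called between DMSO and no treatment. Across the 3 DMSO groups of the 5-FU experiment, 14 member copies were higher and 16 lower than in untreated cells, 30 of 2304, against 1.66% of all copies (0.643% higher and 1.02% lower). Among them were MER58A on chromosome 5 (log2 fold change -1.17), Charlie10a on chromosome 12 (-1.04), MER5B on chromosome 1 (-1.14) and MER20 on chromosome 13 (-1.15). These copies had 373 and 454, 98.6 and 120, 64.1 and 57.7, and 89.6 and 95.04 CPM in the untreated libraries. All 4 copies were highest there among the libraries without drug. By name 6 were lower and 0 higher, 12.0% against 11.8% of all names (1.67% higher and 10.1% lower). This direction depended on the scaling: with factors from filtered copies 12 names were higher and 1 lower, and with DESeq2 8 and 2. The 6 were Charlie11 (-0.64), Charlie10a (-0.49), Charlie9 (-0.34), Charlie10 (-0.32), MER58A (-0.24) and MER20 (-0.21). Charlie11 had 0.82 without its most abundant copy and MER58A -0.05. Without untreated replicate 1 or 2, 4 and 2 member copies and 1 and 0 names were called.

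Counts were spread over fewer member copies after 12 h of 5-FU. With each library thinned to 75348 member counts, as an expected value, 11141 and 11466 member copies had a count in 5-FU 12 h against 16185 and 14716 in DMSO 12 h. Unthinned, they were 12627 and 13005 against 16204 and 14716. At 6 h the thinned numbers were 14654 and 13757 with 5-FU and 16923 and 16571 with DMSO. The untreated libraries, without any drug, had 14124 and 12818, below all DMSO libraries of this experiment. At 24 h the drug libraries, with 13006 and 18743, lay on both sides of the DMSO libraries, with 16316 and 17988. Under Nutlin, thinned to 75076 counts, there were 11720 and 12439 copies against 13688 and 11952 with DMSO, so these groups overlapped. Copies of all other repeats, thinned to 1542707 counts, had the same order at 12 h, with 261498 and 269409 against 364533 and 335657. They also had it at 6 h, with 331757 and 314732 against 380678 and 367787.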

How the data were processed

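The authors deposited 2 tables of read counts per annotated repeat copy, one for each experiment. Trimmomatic 0.32, cutadapt 1.10, Bowtie2, edgeR, DESeq2 and hg19 are named in the submitters' processing notes. How reads that match several copies were counted, and whether strand was used, is not given in the sources used here, so reads of near-identical copies or of opposite strands may be mixed.

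Copies were fitted singly and summed by name with edgeR 4.0.16 in R 4.3.3 (quasi-likelihood test, all groups of a table in 1 fit, Benjamini-Hochberg adjustment over every copy or name tested). Low counts were removed with filterByExpr, except in the alternative without a filter. TMM factors came from tested copies for copies and from all copies for names. The test was checked on simulated counts. Named were the called names, the 5 most abundant names per table, up to 4 risen and 4 fallen copies per drug comparison with the smallest p among those changed at least 1 on the log2 scale without overlap, the 3 most abundant copies per table, and the copies called alike under Nutlin and at 2 or more 5-FU times. Members and lists were chosen with earlier results of these data known. Alternatives were other scalings, DESeq2 1.42.0, no filter, a replicate block, a fit to the compared libraries, other controls, and leaving out libraries or top copies. Thinning and the other TMM source were added after seeing the data. Intervals and floors cover counting error only.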

Additional observations from a re-analysis of the deposited data

Results flagged for a closer look

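For 7 member copies the 5-FU effect at 24 h differed from that at 6 h by edgeR's quasi-likelihood test of the difference of the 2 effects, and in all 7 it was lower at 24 h. MER5B chr1 68941525 had a difference of -2.35 on the log2 scale (edgeR adjusted p = 0.00412), with a log2 fold change of -0.10 at 6 h and -2.45 at 24 h. Charlie4z chr12 105416026 had -2.51 (edgeR adjusted p = 0.00537), with -0.03 at 6 h and -2.54 at 24 h. Charlie1 chr10 96372141 had -4.24 (edgeR adjusted p = 0.00734), with 0 and 3 counts in the 24 h drug libraries. These 3 copies were called under all 15 alternatives run for this test.

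Charlie10a chr12 98928671 had -1.70 (edgeR adjusted p = 0.00792) and was called under 12 of 15. Charlie15a on chr22:42334738-42334878 had -2.61 (edgeR adjusted p = 0.0385) and was called under 5 of 15. MER5A1 on chr8:41402281-41402378 had -2.81 (edgeR adjusted p = 0.0407) and was called under 6 of 15. MER5B on chr17:66041510-66041654 had -3.50 (edgeR adjusted p = 0.04995) and was called under 4 of 15. DMSO levels of Charlie10a and of MER5B on chromosome 1 were higher at 24 h than at 6 h, at 70.0 and 64.2 CPM against 46.0 and 49.6 CPM and at 37.8 and 38.2 CPM against 14.8 and 25.4 CPM. The part of the DMSO libraries in these differences was not tested. Without replicate 1 of 5-FU 24 h 18 member copies were called in this test, and 3 to 6 without any other single library.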

How the results depend on the processing

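With 2 libraries a group, depth and spread limited what could be called. Of 64 changes of named copies, 32 kept their call and direction in every alternative, and 1 turned: Charlie18a chrX 114196307 had 0.97 at 12 h against DMSO 6 h and 24 h. Of 39 changes of named names none kept its call in every alternative, and 37 of 514 values turned sign. The cause of each change was not tested, beyond what fewer libraries or genes tested make by construction. Scaling by library size alone moved the median of all copies by -0.14 under Nutlin, -0.32 at 12 h and -0.15 at 24 h, and that of all names by -0.18, -0.57 and -0.22. RLE factors moved the median of names at 12 h by -0.29 and TMM factors from filtered copies by -0.24, and TMM factors from all copies moved that of copies by 0.23 at 12 h and 0.12 at 6 h. For DMSO against untreated the median of names moved by 0.16 with TMM factors from filtered copies and by 0.14 with RLE factors.

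Called member copies under Nutlin numbered 77 in the fit reported and 41 with no filter, 35 with DESeq2 and 77 by library size alone (29 higher and 48 lower). Called member names were 5, and 16 with library size alone, 3 with the replicate block and 0 without the most abundant copy. Of all names, 29 were called higher and 7 lower without the most abundant copy. At 6 h of 5-FU the single called copy became 3 with TMM factors from all copies, 4 with no filter, 3 with DESeq2 and 2 with only the libraries compared, and 0 names became 5 with only the libraries compared. At 12 h the 228 copies became 114 with no filter (95 higher and 19 lower) and 128 with only the libraries compared, and the 22 names 9 without the most abundant copy. At 24 h the 87 copies became 48 with no filter, 43 with only the libraries compared and 89 by library size alone (31 higher and 58 lower). The 6 names became 1 with library size alone and 0 with only the libraries compared. For the difference between 24 h and 6 h, 7 copies became 12 with library size alone, 15 with DESeq2 and 3 with only the libraries compared, and 0 names became 1 without the most abundant copy. For DMSO against untreated, 30 copies became 61 with library size alone, 55 with TMM factors from all copies, 53 with DESeq2 and 56 with only the libraries compared. The 6 names, all lower, became 2 with library size alone, 13 with TMM factors from filtered copies (12 higher and 1 lower), 10 with DESeq2 (8 higher and 2 lower), 13 with only the libraries compared (11 higher and 2 lower) and 2 without the most abundant copy (1 higher and 1 lower).

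Leaving out 1 library at a time gave 64 to 90 called copies and 1 to 9 names under Nutlin, 0 to 1 copies and 0 to 0 names at 6 h, 75 to 110 copies and 7 to 15 names at 12 h, and 26 to 93 copies and 1 to 14 names at 24 h. It gave 3 to 18 copies and 0 to 7 names for the difference between 24 h and 6 h, and 2 to 21 copies and 0 to 5 names for DMSO against untreated. The lone library left in a group was assumed to vary like the other groups.

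With the replicate block, 62 copies were called under Nutlin, 1 at 6 h, 204 at 12 h, 76 at 24 h, 5 for the difference and 23 for DMSO against untreated. The deviations of replicate 1 in DMSO and drug correlated at -0.0083 over copies under Nutlin, -0.0040 at 6 h, -0.017 at 12 h and 0.154 at 24 h, and over names at -0.072, 0.022, 0.019 and 0.368. Both values were above 0.1 at 24 h alone, so the numbers were not taken to pair the samples.

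As a percent of all counts, the log2 ratio of drug to DMSO for Nutlin was -0.15 for all members, -0.21 for Charlie, -0.16 for MER5, -0.091 for MER20 and -0.0027 for MER58. After 6 h of 5-FU they came to -0.080, -0.078, -0.059, -0.10 and -0.13, after 12 h to -0.31, -0.43, -0.23, -0.12 and -0.35, and after 24 h to -0.12, -0.13, -0.088, -0.16 and -0.17. Without the most abundant member copy, the 12 h ratio of the share outside structural RNA was -0.10 for all members and -0.082 for MER5. Neighbours had the same sign as a called member in 97.0% of cases within 10 kb under Nutlin and in 75.8% within 200 kb at 12 h.

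Names that turned at 12 h with library size alone were Charlie10 (-0.22), Charlie14a (-0.094), Charlie15a (-0.15), Charlie1b (-0.22), Charlie3 (-0.14), Charlie6 (-0.026), Charlie8 (-0.30), MER20 (-0.054), MER20B (-0.37), MER58A (-0.32), MER58B (-0.29), MER58D (-0.079), MER5A (-0.37), MER5A1 (-0.28) and MER5B (-0.043). With RLE factors, and to the same value with DESeq2, Charlie8 had -0.017, MER20B -0.086, MER58A -0.039, MER58B -0.0076 and MER5A -0.089. With TMM factors from filtered copies MER20B had -0.041 and MER5A -0.044. Against DMSO 6 h and 24 h Charlie10 had -0.028, Charlie3 -0.072, MER58A -0.023 and MER5A -0.019. Without the most abundant copy Charlie12 had -0.69, Charlie14a -0.073 and Charlie6 -0.32. Elsewhere, Charlie29a had 0.17 under Nutlin and Charlie11 0.82 for DMSO against untreated without the most abundant copy, and Charlie1b had -0.014 at 24 h with library size alone.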
